A study of Glycine max with 7 samples.

Results

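The central 20% of the length of soybean (Glycine max) chromosomes held 2623 reproducible binding sites of the transcription factors GLYMA.06G314400 and GLYMA.04G093300, out of 64961 such sites on the same 19 chromosomes and 70496 in the whole series. A site was a stretch where peaks of both replicates of a factor overlapped by 1 bp or more, joined end to end. It belonged to this window when its midpoint lay between 40% and 60% of the chromosome's length, which is set here by the last peak end found on it in the lists. The 1634 GLYMA.06G314400 sites and 989 GLYMA.04G093300 sites chosen in this way covered 2236 separate stretches of DNA. They were compared with the 34894 GLYMA.06G314400 and 27444 GLYMA.04G093300 sites outside that window. Chromosome 13, whose window held 712 of its 2855 GLYMA.06G314400 and 599 of its 2316 GLYMA.04G093300 sites, was left out by the same rule, as were unplaced scaffolds. The windows spanned 6.95 to 11.6 Mb per chromosome and 181 Mb of 903 Mb in all.

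The sites come from chromatin immunoprecipitation with sequencing (ChIP-seq), in which DNA crosslinked to a protein is recovered with an antibody and sequenced. All libraries were made from cotyledon-stage embryos of the cultivar Williams 82, dissected from seeds of 3.5 to 4.5 mm and fixed in 1% formaldehyde. The GLYMA.06G314400 group had 2 libraries, replicates 2 and 3, made with 3 µg of a peptide antibody, and the GLYMA.04G093300 group had 2, replicates 1 and 2, made with 2 µg of another. The 3 input libraries of sheared chromatin without antibody were not analysed here.

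Soybean chromosomes carry most of their genes towards the ends, while long stretches around the centromeres are rich in repeats and closed chromatin and recombine little. The midpoint of a chromosome often falls in such a stretch, but its centromere need not lie exactly there. In its lists GLYMA.06G314400 is called AREB3, the name of an Arabidopsis bZIP factor of the family that binds abscisic acid response elements, short promoter elements used in seed maturation. GLYMA.04G093300 is called HB22, where HB commonly stands for homeobox.

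The authors called 41812 and 46269 peaks on these chromosomes in GLYMA.06G314400 replicates 2 and 3, and 46639 and 36594 in GLYMA.04G093300 replicates 1 and 2. Each peak has a fold enrichment, which is the authors' own value and compares only within its list. The strength of a site is therefore given as its rank, the smaller of the 2 percentiles that its highest fold reached in the replicates' lists. Read counts are not in these lists, and the depth of the libraries is unknown. Differences between the window and the rest were tested over the 19 chromosomes with a two-sided exact sign-flip permutation test, and the p-values of 23 such tests were jointly adjusted (Benjamini-Hochberg). The 19 chromosomes come from the same embryos and are no biological replicates. The p-values thus describe how regular a difference was from chromosome to chromosome. Values of the single libraries are given beside some of them.

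Both factors had few called sites per Mb in the central 20%, and GLYMA.04G093300 had fewer. How reads that map to several places were treated is not known, and this can alter peak lists in repeated sequence. Each factor had its own antibody, at 3 µg for GLYMA.06G314400 and 2 µg for GLYMA.04G093300. Differences between the factors, here and below, cannot be told apart from differences between the antibodies or their amounts. The window is 20% of the length of a chromosome, and it held 4.47% of GLYMA.06G314400 sites and 3.48% of GLYMA.04G093300 sites. GLYMA.06G314400 sites averaged 9.27 per Mb in the central 20% and 48.9 per Mb outside, a log2 ratio of -2.51 (SE 0.133 over chromosomes) or 5.68-fold lower in the geometric mean. For GLYMA.04G093300 the densities were 5.602 per Mb in the central 20% and 38.5 per Mb outside, a log2 ratio of -2.92 (SE 0.151) or 7.56-fold lower. Density was lower in the window on 19 of 19 chromosomes for each factor (exact permutation p = 3.81e-06, the smallest that 19 chromosomes can give, adjusted p = 2.19e-05). Chromosome 13, left out by the rule, went the other way for both factors, with a higher density in its window. With it included, the log2 ratios were -2.36 for GLYMA.06G314400 and -2.75 for GLYMA.04G093300. On the 19 chromosomes, the single libraries showed the same deficit. GLYMA.06G314400 replicates 2 and 3 had 4.64% and 4.44% of their peaks in the central 20%, and GLYMA.04G093300 replicates 1 and 2 had 3.72% and 3.59%, or 4.54% ± 0.142 and 3.65% ± 0.0934 (SD, n = 2 each). In bases, sites covered 0.485% of the window and 2.64% of the rest for GLYMA.06G314400, and 0.264% and 1.94% for GLYMA.04G093300.

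**Figure D1:**
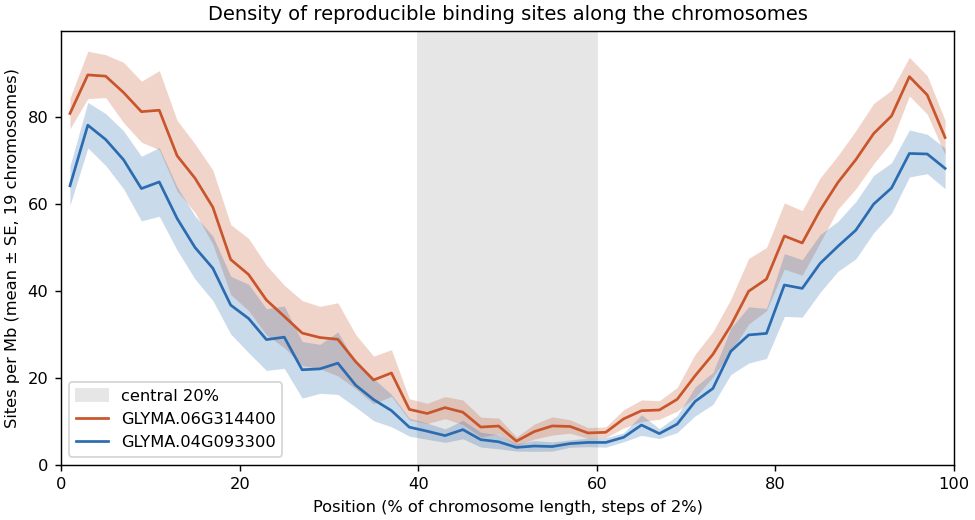
Density of reproducible sites in sites per Mb (y axis, mean and SE band over 19 chromosomes) against position in percent of chromosome length (x axis, steps of 2%), with the central 20% shaded. Both curves reach their lowest point just past the centre, at 5.43 per Mb for GLYMA.06G314400 and 3.99 per Mb for GLYMA.04G093300.

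Between 50% and 52% of the length it reached its lowest value for both factors, 5.43 ± 0.986 per Mb for GLYMA.06G314400 and 3.99 ± 0.846 per Mb for GLYMA.04G093300 (SE, 19 chromosomes). The highest values, between 2% and 4% of the length, were 89.7 and 78.2 per Mb. In the 2% of length just inside both edges of the window there were 345 GLYMA.06G314400 and 228 GLYMA.04G093300 sites, and in the 2% just outside there were 362 and 243. Counts just inside and just outside were thus close. The share of sites that overlapped one of the other factor moved in opposite directions at the 2 edges. For GLYMA.06G314400 it was 28.3% just inside and 22.5% just outside the edge at 40%, but 22.6% inside and 30.4% outside that at 60%. For GLYMA.04G093300 it was 44.1% inside and 34.2% outside at 40%, and 32.6% inside and 43.96% outside at 60%. These shares were not tested.

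GLYMA.06G314400 kept a larger part of its sites in the window than GLYMA.04G093300 did, a direction known from earlier work on these lists. The share of a chromosome's sites that lay in its central 20% had a mean of 4.48% in GLYMA.06G314400 and of 3.48% in GLYMA.04G093300, a difference of 1.00 percentage point (SE 0.215, higher on 17 of 19 chromosomes, exact permutation p = 0.000225, adjusted p = 0.000647). In counts, there were 1.65 GLYMA.06G314400 sites for each GLYMA.04G093300 site in the central 20% and 1.27 outside it. This ratio was highest on chromosomes 16 and 10, with 78 against 25 and 67 against 22 sites in the window. The exceptions were chromosomes 7 and 15, where the ratio in the window was 1.30 and 1.14, below the 1.33 and 1.34 outside.

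Chromosomes differed widely in the density of sites in their central 20%. Chromosome 8 had the highest for both factors, with 19.7 GLYMA.06G314400 sites per Mb (188 sites) and 12.5 GLYMA.04G093300 sites per Mb (119 sites). Chromosome 11 was second by density, with 17.0 and 11.2 per Mb. Chromosome 4 had the lowest density, with 2.87 and 2.10 per Mb (30 and 22 sites), close to the 2.13 per Mb of GLYMA.04G093300 on chromosome 10. All 4 libraries showed this contrast between chromosomes 8 and 4. GLYMA.06G314400 replicates 2 and 3 had 217 and 229 peaks in the window of chromosome 8, against 41 and 38 in that of chromosome 4. GLYMA.04G093300 replicates 1 and 2 had 198 and 155 on chromosome 8, against 37 and 26 on chromosome 4.

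**Figure D2:**
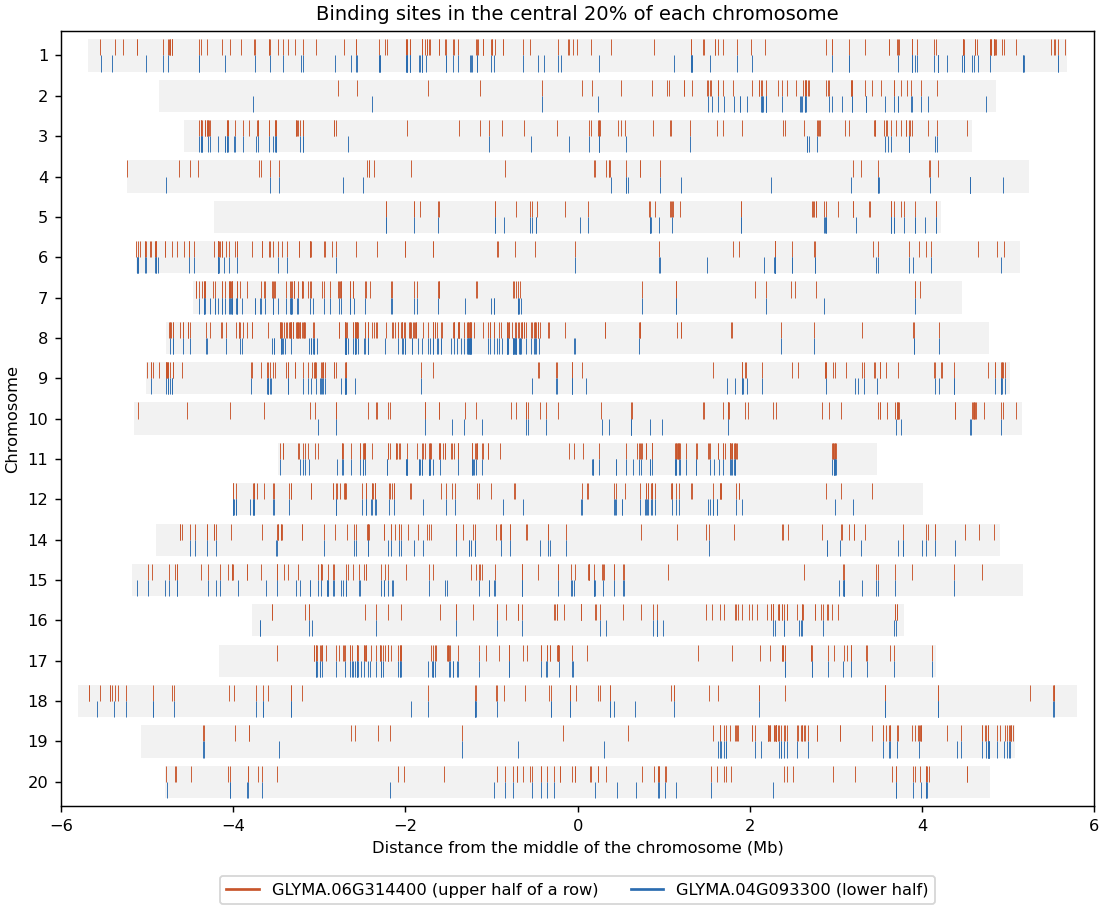
Each row is the central 20% of 1 chromosome, drawn to scale as distance from the chromosome's middle in Mb (x axis), and each tick is a site (GLYMA.06G314400 in the upper part of a row, GLYMA.04G093300 in the lower part). Sites of both factors crowd on one side of the middle on chromosomes 2, 7, 8 and 19 and leave long stretches empty.

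Within the window, sites of both factors were uneven and often lay on one side of the middle. On chromosome 8, 172 of 188 GLYMA.06G314400 sites and 113 of 119 GLYMA.04G093300 sites lay between 40% and 50% of the length. Chromosome 7 was similar, with 75 of 87 and 61 of 67 sites on that side. On chromosome 2 the same side held only 5 of 56 GLYMA.06G314400 and 3 of 43 GLYMA.04G093300 sites, and on chromosome 19 it held 11 of 91 and 5 of 41. The map of the windows shows that the factors crowded on the same side of these 4 chromosomes. Over all 19 chromosomes, 59.1% of GLYMA.06G314400 and 60.1% of GLYMA.04G093300 sites lay on the side below 50%.

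Much of the window carried no called site. An empty stretch is not shown to be unbound, since depth and the treatment of reads that map to several places are unknown. Of 1797 stretches of 100 kb in the central 20%, 962 (53.5%) had no site of either factor, against 1374 of 7206 (19.1%) outside. GLYMA.06G314400 was absent from 58.5% of stretches in the window and 22.6% outside, and GLYMA.04G093300 from 71.5% and 29.5%. The longest run without a site of either factor measured 1.99 Mb, on chromosome 5 from 16886684 to 18880106, which starts at the edge of the window. The next were 1.57 Mb on chromosome 15 from 26927534 to 28498915 and 1.47 Mb on chromosome 9 from 25187940 to 26656336. For GLYMA.04G093300 alone the longest was 2.87 Mb on chromosome 4, and for GLYMA.06G314400 it was 2.24 Mb on the same chromosome. In contrast, 178 stretches (9.91%) held 50% of the GLYMA.06G314400 sites of the window, and 125 (6.96%) held 50% of the GLYMA.04G093300 sites. Outside, the corresponding shares were 19.997% and 17.0%.

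Neighbouring sites of 1 factor lay farther apart in the central 20%. The median gap to the nearest site of the same factor was 7.31 kb in the central 20% and 3.13 kb outside for GLYMA.06G314400, and 9.04 kb and 2.88 kb for GLYMA.04G093300. Averaged over chromosomes, the log2 ratio of the medians was 1.56 (SE 0.209) for GLYMA.06G314400, higher on 19 of 19 chromosomes (exact permutation p = 3.81e-06, adjusted p = 2.19e-05). For GLYMA.04G093300 it was 2.00 (SE 0.396), higher on 18 of 19 (exact permutation p = 3.43e-05, adjusted p = 0.000158). The gap moves with the density and is not a separate result. Lone sites, with more than 100 kb to the next, made up 10.3% (168 sites) of GLYMA.06G314400 sites in the window and 0.822% outside. For GLYMA.04G093300 they made up 16.8% (166 sites) in the window and 1.199% outside. Close neighbours were nearly as common as elsewhere, a comparison that was not tested. A gap under 1 kb was found for 19.8% of GLYMA.06G314400 sites in the window and 23.5% outside, and for 22.8% and 27.6% of GLYMA.04G093300 sites.

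**Figure D3:**
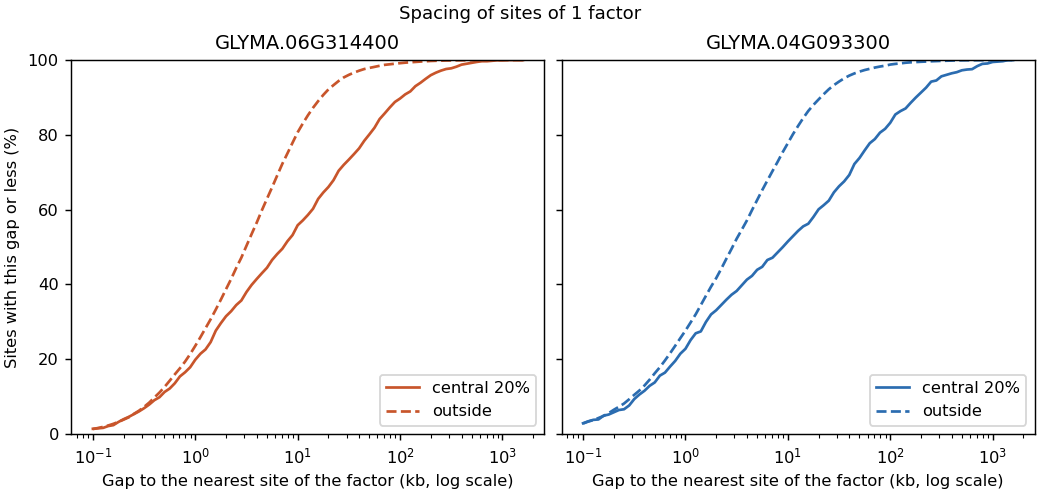
Cumulative share of sites (y axis, %) by gap to the nearest site of the same factor (x axis, kb, log scale) for GLYMA.06G314400 (left) and GLYMA.04G093300 (right), in the central 20% (solid) and outside (dashed). At 10 kb the solid curves stand at 55.8% and 51.5% and the dashed curves at 80.7% and 77.8%.

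In rank and width, lone sites were close to the other sites of the window, without a test. Lone GLYMA.06G314400 sites of the window had a mean rank of 49.6 and a median width of 482.5 bp, against a mean rank of 50.9 and a median width of 487 bp for all GLYMA.06G314400 sites of the window. Lone GLYMA.04G093300 sites had a mean rank of 45.2 and a median width of 408 bp, against 46.1 and 430 bp. Sites of the window with a gap under 1 kb stood farther from the lone ones. Their mean rank and median width were 52.4 and 533.5 bp for GLYMA.06G314400, and 50.3 and 460 bp for GLYMA.04G093300. The loneliest GLYMA.06G314400 site, on chromosome 4 from 25334342 to 25334646, was 1030 kb from the next, with folds of 4.201 and 4.40 in replicates 2 and 3. The loneliest GLYMA.04G093300 site, on chromosome 2 from 21898580 to 21899285, was 1387 kb from the next, with folds of 4.78 and 3.11 in replicates 1 and 2. These loneliest sites were chosen after their values were seen.

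The densest 100 kb of each factor held 14 sites and differed in strength. For GLYMA.06G314400 it lay on chromosome 19 from 27579438 to 27676913. None of its 14 sites overlapped a peak of either GLYMA.04G093300 library, and no GLYMA.04G093300 site lay between them. Without such a peak were also 60.6% of all GLYMA.06G314400 sites of the window and 73.6% of those in the window of chromosome 19. Both shares include these 14 sites. Of all 100 kb stretches of the window, 71.5% held no GLYMA.04G093300 site. That base includes stretches without either factor. Among the 745 stretches with a GLYMA.06G314400 site, 323 held no GLYMA.04G093300 site. The median rank was 66.1, and 6 of the 14 sites ranked above 90. Folds ran between 3.53 and 60.9 in replicate 2 and between 4.05 and 66.1 in replicate 3. The 6 sites ranked above 90 lay as neighbouring pairs, but close spacing was not particular to them. Folds of 31.9 and 27.8 (replicates 2 and 3) stood 1715 bp, summit to summit, from folds of 42.97 and 37.9. Farther along, folds of 36.2 and 53.98 stood 3396 bp from folds of 24.7 and 27.7. The third pair, with folds of 40.95 and 40.7, stood 1711 bp from the strongest site of the whole window. A weaker pair, between the strong ones at the start of the stretch, was 1628 bp apart. Weaker sites at the end of the stretch, from 27672225 to 27676913, stood closer still. Their ranks were 8.87 to 62.4, and their summits were 1231, 628, 1308 and 948 bp apart. The pairs were noticed after the values were seen.

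The densest 100 kb of GLYMA.04G093300 lay on chromosome 8 from 23132757 to 23231167. Its 14 sites were weak, with a median rank of 28.4, folds between 2.71 and 8.61 in replicate 1 and between 2.63 and 6.42 in replicate 2, and 1 site ranked above 90. Between the first and the last of them lay 4 GLYMA.06G314400 sites, of which 1 overlapped a GLYMA.04G093300 site, with folds up to 24.6 and 23.5 in replicates 2 and 3. A further one lay past the last, within the full 100 kb, which thus held 5.

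**Figure D4:**
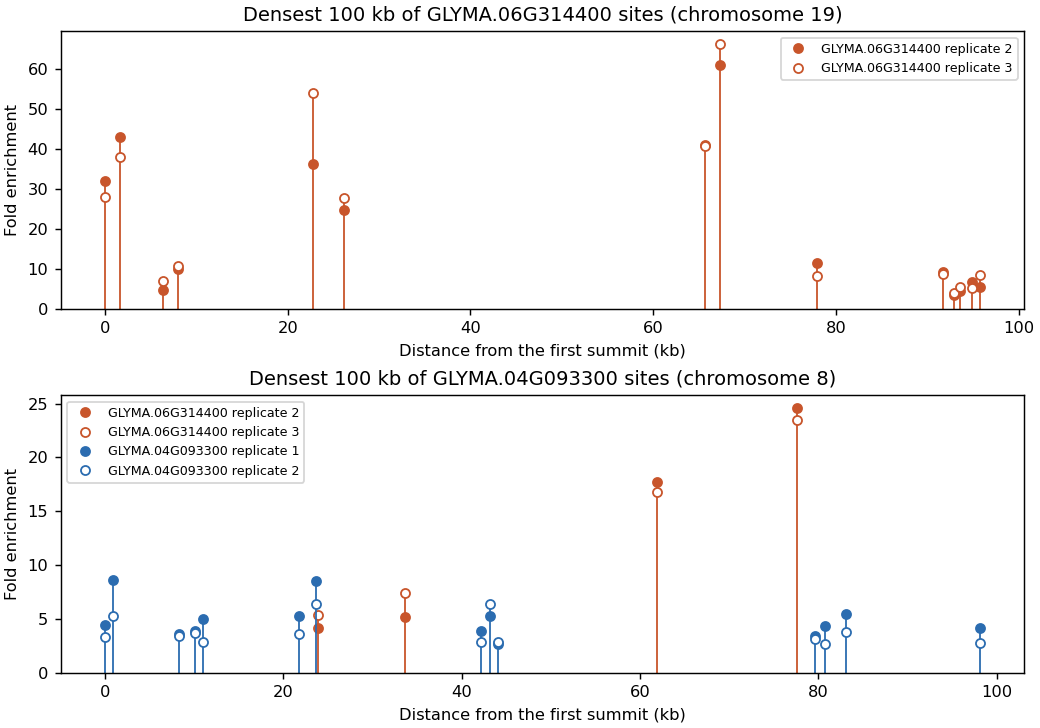
Fold enrichment (y axis) of each site in the densest 100 kb of GLYMA.06G314400 (top, chromosome 19) and of GLYMA.04G093300 (bottom, chromosome 8) against distance from the first summit in kb (x axis). Filled and open circles are the 2 replicates of a factor, and the 14 sites of the top panel reach 60.9 and 66.1 while those of GLYMA.04G093300 in the bottom panel stay at or below 8.61.

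Sites in the central 20% were about as strong and as wide as sites elsewhere. The mean rank of GLYMA.06G314400 sites was 50.7 in the window and 49.7 outside, a difference of 1.01 points (SE 0.836, adjusted p = 0.306, exact permutation). For GLYMA.04G093300 it was 45.7 in the window and 47.3 outside, a difference of -1.59 points (SE 0.850, adjusted p = 0.1202, exact permutation). Neither difference passed the test with sites from both libraries. With the peaks of GLYMA.04G093300 replicate 1 in place of its sites, that is without replicate 2, its difference was -1.58 points and passed (adjusted exact permutation p = 0.0452). The difference between the factors was 2.60 points (SE 0.848, higher on 15 of 19 chromosomes, exact permutation p = 0.00575, adjusted p = 0.0120). That difference was lost with peaks of q at or below 1e-05 (0.46 points, adjusted exact permutation p = 0.772) and had the other sign among the 10000 highest peaks of each library (-5.15 points, adjusted p = 0.225). It also missed the threshold without GLYMA.06G314400 replicate 3 (1.85 points, adjusted exact permutation p = 0.123).

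The median folds of single libraries were close. In GLYMA.06G314400 replicates 2 and 3 they were 6.59 and 6.75 in the central 20%, against 6.43 and 6.68 outside. In GLYMA.04G093300 replicates 1 and 2 they were 4.17 and 3.77 in the central 20%, against 4.23 and 3.86 outside. The very strongest sites were not missing from the window either. It held 4 of the 100 highest sites of each factor, and 39 and 35 of the 1000 highest GLYMA.06G314400 and GLYMA.04G093300 sites. Across 5 equal classes of strength, between 3.997% and 4.68% of GLYMA.06G314400 sites and between 3.22% and 3.64% of GLYMA.04G093300 sites lay in the window.

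Width differed little. The median width, averaged over chromosomes, was 490 bp in the central 20% and 488 bp outside for GLYMA.06G314400, a difference of 1.79 bp (SE 6.26, adjusted p = 0.781, exact permutation). For GLYMA.04G093300 it was 427 bp in the central 20% and 445 bp outside, a difference of -18.2 bp (SE 10.0, narrower on 13 of 19 chromosomes, adjusted p = 0.125, exact permutation). With the peaks of 1 GLYMA.04G093300 library in place of its sites the difference passed the test, at -15.0 bp (adjusted exact permutation p = 0.0183) without replicate 2 and -19.7 bp (adjusted p = 0.00696) without replicate 1. Sites of 1 kb or more made up 2.82% (46) of GLYMA.06G314400 and 2.93% (29) of GLYMA.04G093300 sites in the window, against 4.61% and 4.64% outside. These shares were not tested.

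A smaller share of GLYMA.06G314400 sites overlapped a GLYMA.04G093300 site in the central 20%. This share moves with the relative number of GLYMA.04G093300 sites. There were 1.65 GLYMA.06G314400 sites for each GLYMA.04G093300 site in the window and 1.27 outside. How far the lower share goes beyond that ratio was not tested. Of the GLYMA.06G314400 sites in the window 376 (23.0%) overlapped a GLYMA.04G093300 site, against 11048 (31.7%) outside. Averaged over chromosomes the shares were 22.3% and 31.5%, a difference of -9.17 points (SE 1.495), lower on 19 of 19 chromosomes (exact permutation p = 3.81e-06, adjusted p = 2.19e-05). Both libraries went the same way, with 20.4% of replicate 2 and 22.9% of replicate 3 peaks in the window overlapping a GLYMA.04G093300 site, against 29.1% and 30.3% outside. The difference was -8.93 points at equal width, -5.72 points for overlaps of 50% of both sites or more, -5.95 points among the 10000 peaks of highest fold per library, and -2.89 points when summits had to lie within 100 bp (adjusted exact permutation p = 0.00273). The overlap was lower in the window in each of 5 equal classes of strength, at 29.7% against 40.4% among the strongest and 21.9% against 26.8% among the weakest. Chromosome 10 had the lowest overlap, 10.4% of 67 sites, and chromosome 6 the highest, 30.3% of 89.

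**Figure D5:**
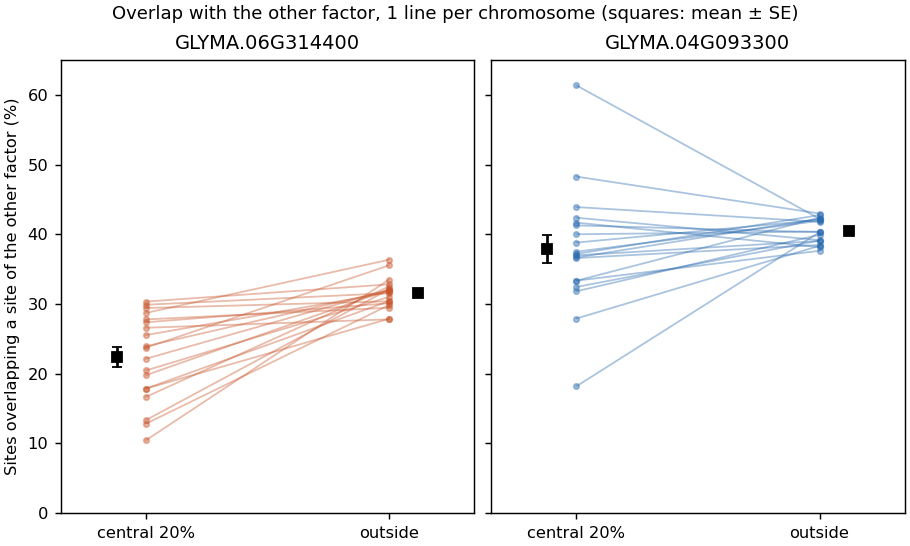
Share of sites (y axis, %) that overlapped a site of the other factor, for GLYMA.06G314400 (left panel) and GLYMA.04G093300 (right panel), in the central 20% and outside. Each line is 1 of 19 chromosomes and squares are means with SE over chromosomes. All lines in the left panel are lower in the central 20%, with means of 22.3% and 31.5%, while those in the right panel go both ways, with means of 37.9% and 40.5%.

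From the side of GLYMA.04G093300 the overlap did not pass the test. Of its sites in the window 379 (38.3%) overlapped a GLYMA.06G314400 site, against 11122 (40.5%) outside. The difference over chromosomes was -2.61 points (SE 1.87, lower on 13 of 19, exact permutation p = 0.188, adjusted p = 0.255). Its chromosomes ranged more widely, between 18.2% of 22 sites on chromosome 4 and 61.4% of 44 sites on chromosome 6. The difference between the factors in this effect was -6.56 points (SE 1.62, lower for GLYMA.06G314400 on 15 of 19 chromosomes, exact permutation p = 0.000523, adjusted p = 0.00134), and it did not pass with the 10000 highest peaks (-3.43 points, adjusted p = 0.145). Overlapping sites numbered nearly the same from either side, 376 and 379 in the window and 11048 and 11122 outside. The shares of the 2 factors are therefore tied to each other by the numbers of their sites. This contrast largely restates the larger ratio of GLYMA.06G314400 to GLYMA.04G093300 sites in the window given above. It is not a separate result.

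Sites of GLYMA.06G314400 without any peak of the other factor were correspondingly more common in the window. They made up 991 sites, or 61.3% on average over chromosomes, against 53.0% outside, a difference of 8.34 points (SE 1.59, higher on 16 of 19, exact permutation p = 0.000149, adjusted p = 0.000489). For GLYMA.04G093300 they made up 496 sites, 51.3% in the window and 49.6% outside (1.75 points, SE 2.24, adjusted p = 0.492, exact permutation). These shares, too, are tied to the numbers of sites of the factors and are not a separate result. Where the factors did not overlap, the distance between them was longer in the window. This distance moves with the density and is not a separate result. A GLYMA.06G314400 site of the window without overlap had its nearest GLYMA.04G093300 site at a median of 28.9 kb, against 5.39 kb outside. In 23.4% of cases it was more than 100 kb away, against 2.43% outside. A GLYMA.04G093300 site of the window without overlap had its nearest GLYMA.06G314400 site at 5.93 kb, against 3.05 kb outside. By stretches of 100 kb, 82.4% of those with a GLYMA.04G093300 site also held a GLYMA.06G314400 site, while 56.6% of those with a GLYMA.06G314400 site held one of GLYMA.04G093300. Outside the window these shares were 94.96% and 86.5%, and they too move with the density.

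Where the factors did overlap, their summits lay about as far apart as elsewhere. The median distance of summits averaged 124 bp in the window and 131 bp outside (difference -7.24 bp, SE 11.3, adjusted p = 0.565, exact permutation). Of the overlapping GLYMA.06G314400 sites, 169 of 376 (44.9%) had a GLYMA.04G093300 summit within 100 bp, against 39.8% outside. Between replicates of a factor the summits of a site were a median of 21 bp apart for GLYMA.06G314400 and 43 bp apart for GLYMA.04G093300, with equal medians inside and outside the window. Sites that overlapped the other factor had larger median widths than those without any peak of it, in the window as outside. For GLYMA.06G314400 the medians were 563.5 against 462 bp in the window and 555 against 448 bp outside, and for GLYMA.04G093300 they were 454 against 412.5 bp in the window and 497 against 408 bp outside.

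Peaks in the central 20% recurred slightly less often in the other replicate for GLYMA.04G093300. Of its peaks in the window 58.6% in replicate 1 and 77.7% in replicate 2 had a partner, against 62.9% and 79.9% outside. The mean difference was -3.72 points (SE 1.34, lower on 13 of 19 chromosomes, exact permutation p = 0.0106, adjusted p = 0.0203). At equal width it was -1.10 points (adjusted exact permutation p = 0.5004), and among the 10000 highest peaks it was -1.02 points (adjusted p = 0.6996). For GLYMA.06G314400 the libraries went in opposite directions. Replicate 2 had 85.5% with a partner in the window and 88.9% outside, and replicate 3 had 79.8% and 79.3%. The mean difference of -1.89 points (SE 0.8005) missed the threshold after adjustment (exact permutation p = 0.0306, adjusted p = 0.0541). The same value passed (adjusted exact permutation p = 0.0459) when either GLYMA.04G093300 library was left out, which changes only the tests it is adjusted with. Median folds of peaks of the window without a partner were 4.13 and 4.25 in GLYMA.06G314400 replicates 2 and 3, against 7.58 and 8.36 for those with a partner, and 3.67 and 3.41 in GLYMA.04G093300 replicates 1 and 2, against 4.85 and 3.94.

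Of the 5 strongest GLYMA.06G314400 sites of the window, 4 had no peak of GLYMA.04G093300, as did 60.6% of all its sites there. Strong sites of the window did not stand alone more often. Of those in the strongest of 5 equal classes 29.7% overlapped a GLYMA.04G093300 site, against 21.9% in the weakest. The highest site, at 27647819 to 27648693 of chromosome 19, reached 60.9-fold in replicate 2 and 66.1-fold in replicate 3 and lay inside the dense stretch described above. The second, on chromosome 8 from 21316451 to 21317409, had a fold of 54.8 in each replicate. The third, on chromosome 11 from 15984320 to 15985564, had folds of 47.7 and 48.3 and a GLYMA.04G093300 site at 0.21 kb without touching it. None of these 3 sites overlapped a peak of GLYMA.04G093300. The fourth, on chromosome 3 from 18583471 to 18584142, had folds of 56.3 and 47.8 and overlapped a GLYMA.04G093300 site of moderate rank (52.1), with folds of 5.31 and 3.89 and a summit 19 bp away. The fifth, on chromosome 19 from 23186434 to 23187481, had folds of 42.9 and 45.3 and its nearest GLYMA.04G093300 site 837 kb away. The highest single fold of the whole GLYMA.06G314400 replicate 3 list, 75.2, also lay in the window, on chromosome 3 from 23958514 to 23959816, where replicate 2 had 38.6. It was chosen after its value was seen.

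Of the 5 strongest GLYMA.04G093300 sites of the window, 4 overlapped a GLYMA.06G314400 site, as did 38.3% of all its sites there. The share was higher among strong sites, in the window as outside. In the strongest of 5 equal classes it was 48.6% in the window and 53.6% outside. Among the 1000 highest it was 54.3% of the 35 sites in the window and 61.6% outside. The highest, at 17234713 to 17235385 of chromosome 12, reached 21.6-fold in replicate 1 and 19.3-fold in replicate 2. It touched a peak of GLYMA.06G314400 replicate 3 only, with a fold of 3.52. The next 4 all overlapped GLYMA.06G314400 sites. A site at 29361370 to 29362186 of chromosome 18 had folds of 21.5 and 12.4. One at 17512382 to 17513006 of chromosome 16 had 20.05 and 12.2. Those at 27942440 to 27943551 of chromosome 6 and 21918955 to 21919430 of chromosome 14 had 17.7 and 12.04, and 13.97 and 12.6. The site on chromosome 16 was 480 kb from the next GLYMA.04G093300 site. None of these 5 sites was free of GLYMA.06G314400 peaks. The strongest sites without any GLYMA.06G314400 peak thus ranked lower by the way they were chosen. Folds were 13.1 and 11.1 at 20152203 to 20152820 of chromosome 7, 13.1 and 12.2 at 24995746 to 24996789 of chromosome 1, and 17.6 and 10.4 at 28001492 to 28002315 of chromosome 2.

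Few places in the window were strong for both factors. Of 387 pairs of overlapping sites 5 (1.29%) had both ranks above 90, against 230 of 11329 (2.03%) outside, a difference that was not tested. The first by its lower rank lay on chromosome 14 from 21918935 to 21919653, where GLYMA.06G314400 had folds of 45.1 and 29.3 in replicates 2 and 3 and GLYMA.04G093300 had 13.97 and 12.6 in replicates 1 and 2, with summits 92 bp apart. The second, on chromosome 20 from 23200142 to 23200898, had GLYMA.06G314400 folds of 25.8 and 38.2 and GLYMA.04G093300 folds of 8.25 and 6.69, with summits 80 bp apart. The third, on chromosome 6 from 21198950 to 21199553, had 44.2 and 28.4 for GLYMA.06G314400 and 8.28 and 6.63 for GLYMA.04G093300, with summits 54 bp apart. The widest site of each factor also lay on chromosome 6, and the 2 overlapped. That of GLYMA.06G314400 was 2397 bp wide, from 21483720 to 21486116, and that of GLYMA.04G093300 was 2430 bp wide, from 21481971 to 21484400.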

How the data were processed

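Reproducible binding sites were studied in 4 of the 7 samples, 2 ChIP libraries per factor; the labels call the replicates biological. The submitters' processing notes name the aligner Bowtie 0.12.7 and the peak caller MACS3. Not given in the sources used here are settings, genome build, control and the treatment of reads that map to several places, which can alter peak lists in repeated sequence. The authors deposited 1 peak list per library, with a fold (a ratio within the library), a −log10 p-value and −log10 q-value and an integer score, which follows the q-value and was not used; all deposited peaks have a q-value of 0.01 or lower. Coordinates are those of the deposited lists. Peak names inside the lists carry other replicate numbers than the labels, which were followed.

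Here, peaks were joined into sites, split at 40% and 60% of chromosome length, and measures compared per chromosome (log2 ratio for density and gap, difference of medians for width and summit distance, difference of means for rank and shares). All 524288 sign patterns of the 19 chromosomes were enumerated. Equal width means 20 groups by rank of width within a chromosome, weighted as the sites of the window. Alternatives were stricter peaks, other overlaps and windows, each library left out, chromosome 13 included, and the outermost 10% of each end left out. Another placed sites by summit instead of midpoint. Named sites were the 5 strongest per factor in the window, the 3 strongest without a peak of the other factor, the 3 pairs strongest in both, and the widest, densest and emptiest places. The members and lists were chosen with earlier results of these data known. Overlap code and test were tested on simulated data. No 2 lists were identical. No genome of the lists' build was used here, so neither sequence nor genes are given. A comparison of 2 and 2 libraries cannot reach an exact permutation p below 0.333 and was not made. Software comprised scipy 1.17.1, pandas 2.3.3, numpy 2.4.6, matplotlib 3.10.9 and Python 3.11.15.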

Additional observations from a re-analysis of the deposited data

Results flagged for a closer look

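The effect of the central 20% differed between the factors in 4 measures, by a test of the difference itself over 19 chromosomes (exact sign-flip permutation). The log2 density ratio of central 20% to outside was 0.41 higher for GLYMA.06G314400 (SE 0.0949, 17 of 19 chromosomes, adjusted exact permutation p = 0.000489), which is the difference in window shares on another scale. The rank effect differed by 2.60 points (adjusted exact permutation p = 0.0120), the effect on overlap with the other factor by -6.56 points (adjusted p = 0.00134), and the effect on the share of sites without a peak of the other factor by 6.59 points (SE 2.00, 15 of 19 chromosomes, adjusted p = 0.0105). The last did not pass with peaks of q at or below 1e-05 (4.96 points, adjusted p = 0.102), the 10000 highest peaks (5.56 points, adjusted p = 0.263), the central 10% (4.90 points, adjusted p = 0.137) or the chromosome ends left out (4.85 points, adjusted p = 0.0887), by the same exact permutation test. The density and the effects on overlap and on sites without a peak of the other factor describe related counts and are not separate results. In all 4 measures, factor and antibody cannot be told apart.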

How the results depend on the processing

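The lower density and longer gaps of both factors, the lower overlap and larger unaccompanied share of GLYMA.06G314400, and the larger window share and density of GLYMA.06G314400 relative to GLYMA.04G093300 kept direction and side of the threshold in all alternatives run. Log2 density effects ran from -2.77 to -2.09 for GLYMA.06G314400 and from -3.19 to -2.45 for GLYMA.04G093300, and the overlap effect of GLYMA.06G314400 from -9.19 to -2.89 points. Effects below are central 20% minus outside, and their differences are GLYMA.06G314400 minus GLYMA.04G093300; ranks and shares are in points, widths and summit distances in bp, and the cause of each change was not tested. Over all measures, 282 values under alternatives comprised 238 on the same side, 14 that newly passed, 12 that no longer passed and 18 with the other sign.

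At a q of 1e-05 or lower, the width effect of GLYMA.04G093300 passed at -21.3, its rank effect turned to 0.404, and the differences in rank (0.464) and unaccompanied share (4.96) no longer passed. With the 10000 highest peaks, only 343 GLYMA.06G314400 and 186 GLYMA.04G093300 sites were left in the window. The GLYMA.06G314400 effects on width (-21.5), rank (-2.82) and recurrence (0.780), the GLYMA.04G093300 rank effect (2.33), the summit distance (94.2) and the rank difference (-5.15) changed sign. Recurrence of GLYMA.04G093300 (-1.02) and the differences in overlap (-3.43) and unaccompanied share (5.56) no longer passed. With 50% overlap, GLYMA.04G093300 width (-25.1), summit distance (-16.6) and the width difference (29.4) passed. In the central 10% (709 and 435 sites), GLYMA.06G314400 rank (-0.354) and the recurrence difference (-0.843) changed sign, and GLYMA.04G093300 recurrence (-1.12) and the differences in rank (0.662) and unaccompanied share (4.90) no longer passed. In the central 40% (4540 and 3011 sites), GLYMA.06G314400 width (-1.45) and the GLYMA.04G093300 unaccompanied share (-0.0613) changed sign, while summit distance (-14.3) and the log2 gap difference (-0.486) passed. With the chromosome ends left out, the differences in rank (2.17) and unaccompanied share (4.85) no longer passed. With chromosome 13, GLYMA.06G314400 recurrence passed at -1.86. At equal width, GLYMA.04G093300 recurrence (-1.10) no longer passed and the recurrence difference turned to -0.201. With summits within 100 bp, a definition added after seeing the data, the GLYMA.04G093300 overlap effect was 0.508.

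With each library left out in turn, width effects ran from -9.24 to 1.79 for GLYMA.06G314400 and from -19.7 to -15.0 for GLYMA.04G093300, and their difference from 8.95 to 21.5, which passed at its highest, without GLYMA.04G093300 replicate 1 (adjusted exact permutation p = 0.0245). The GLYMA.04G093300 effects on rank ran from -1.84 to -1.58, passing at -1.58 without its replicate 2, and on unaccompanied share from -0.918 to 2.23. Recurrence of GLYMA.06G314400 was -1.89 and passed without either GLYMA.04G093300 library. Summit distance ran from -16.4 to 4.63, and the differences in rank from 1.85 to 2.85 and in log2 gap from -0.744 to 0.0577. The rank difference no longer passed at 1.85, without GLYMA.06G314400 replicate 3, and the gap difference passed at -0.744, without GLYMA.06G314400 replicate 2 (adjusted exact permutation p = 0.0420). Recurrence could not be computed for a factor left with 1 library. Base composition, motifs and distance to genes were not run, since no genome of the lists' build was used here. No paired analysis was possible because the factors share only 1 replicate number, 2. Unknown depth limits what the absence of a peak shows.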
